A study of Zea mays with 6 samples.

Results

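The 4 maize derlin genes described here were those named DER1.1, DER1.2, DER2.1 and DER2.2 in the deposited table. They were found by name and occupied 4 of 36781 loci and 10 of 86771 transcripts. RNA sequencing was done on maize endosperm at 12 days after pollination, with 3 libraries of the smk8-ref mutant and 3 of the wild type (WT). The labels give no background line, no affected gene and no treatment for either genotype, and they do not say whether the repeats came from separate ears or plants, so a p-value here speaks of the spread among these 6 libraries alone. Levels are FPKM (fragments per kilobase of transcript, relative to sequencing depth), summed over the transcripts of a locus. The scale is per length, so levels of different genes can be set side by side. Where 3 values are given for a genotype they are those of its replicates 1, 2 and 3, in that order.

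Derlins are small membrane proteins of the endoplasmic reticulum. They take part in the pathway that carries misfolded proteins out of that compartment for destruction in the cytosol, a process called endoplasmic-reticulum-associated degradation. Yeast Der1 is the founding member, and maize Derlin genes can stand in for it in yeast. In the cereal endosperm, where storage proteins pass through the endoplasmic reticulum in large amounts, this pathway is part of protein quality control, and maize Derlin1 is known to accumulate under endoplasmic reticulum stress.

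The RefSeq gene table (assembly Zm-B73-REFERENCE-NAM-5.0) lists all 4 names as synonyms of 1 gene each, and for 4 of 4 the chromosome was the one in the deposited table. Coordinates are those of the deposited table, whose contig names begin with B73V4. DER1.1 (Zm00001d010368) lies on chromosome 8, minus strand, 111481667 to 111489438. DER1.2 (Zm00001d037687) lies on chromosome 6, plus strand, 133982114 to 133986795. Each is listed with a single transcript. DER2.1 (Zm00001d012834, 3 transcripts) lies on chromosome 5, plus strand, 958297 to 964764. DER2.2 (Zm00001d034871, 5 transcripts) lies on chromosome 1, minus strand, 304367515 to 304374498.

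The FPKM values of a library summed to between 287260 and 321002, and between 14350 and 15988 genes reached 1 FPKM. The files give no read totals, so the depth behind each value is unknown. Of 36 endosperm marker names sought, 3 were found in the table, and FIE1, an endosperm Polycomb gene, stood between 16.4 and 38.8 FPKM over the 6 libraries. Storage protein names were among those sought and none of them was matched, so storage protein genes were not analysed here. In bulk tissue, a change in the number of cells that express a gene and a change in RNA per cell cannot be told apart.

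Every derlin was expressed in every library, between 5.47 and 27.4 FPKM. In WT endosperm the family fell into a higher and a lower pair. DER2.1 (24.1 ± 3.25 FPKM, SD, n = 3) and DER1.2 (23.0 ± 1.81) were within each other's spread, and DER1.1 (9.97 ± 1.90) and DER2.2 (8.43 ± 2.004) were likewise within theirs. In smk8-ref endosperm the order was DER2.1 (20.0 ± 1.58 FPKM), DER1.1 (15.8 ± 3.29), DER1.2 (12.8 ± 2.35) and DER2.2 (6.12 ± 0.710), and the spreads of DER1.1 and DER1.2 overlapped. Ranked by mean over the 6 libraries, the derlins lay between the 61.0 percentile (DER2.2) and the 86.0 percentile (DER2.1) of the 15858 genes tested.

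**Figure D1:**
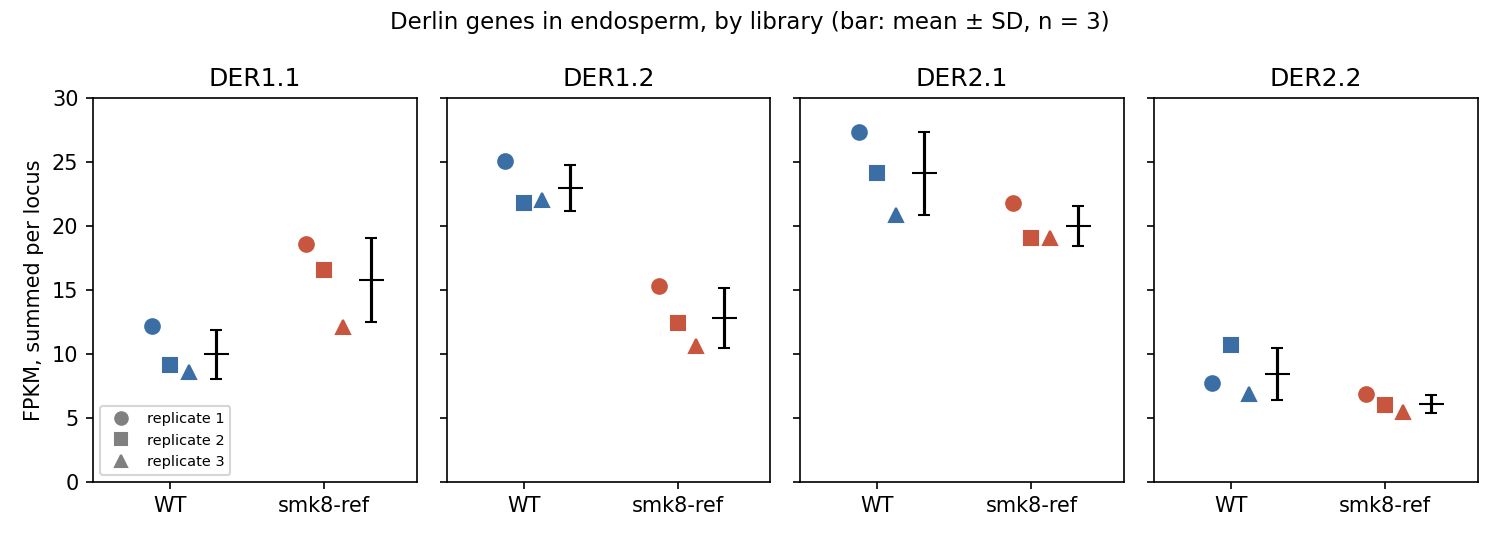
FPKM summed per locus (y axis, linear from 0) for each derlin gene in 3 WT and 3 smk8-ref endosperm libraries, with one symbol per replicate number and the mean ± SD beside the points. DER1.2 shows a gap between the genotypes, with 15.3 FPKM as the highest smk8-ref value and 21.8 as the lowest WT value, whereas DER1.1 lies higher in smk8-ref and touches the WT range.

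Of the 4 derlins, DER1.2 passed the test and the other 3 did not. This gene of the Derlin1 type stood at 25.0, 21.8 and 22.0 FPKM across the WT repeats, and 15.3, 12.4 and 10.6 across those of smk8-ref. All smk8-ref libraries lay below all WT libraries. The mean was 1.797-fold lower in smk8-ref, and on the log2(FPKM + 1) scale the level fell by 0.81 ± 0.16 (SE; 95% interval -1.18 to -0.44; limma over all genes, Benjamini-Hochberg adjusted p = 0.033). Of the 15858 genes tested, 7.6% passed that threshold of 0.05, 4.21% as lower and 3.39% as higher in smk8-ref. The call rests on the full set of libraries: with smk8-ref replicate 2, WT replicate 1, smk8-ref replicate 3, smk8-ref replicate 1 or WT replicate 2 left out the limma adjusted p was 0.106, 0.104, 0.0828, 0.0717 and 0.066, while without WT replicate 3 it was 0.045. The fall itself stayed between -0.94 and -0.69 on the log2 scale in these fits. The call was also lost with no filter, with quantile normalization, with the replicate number as a block and with a library covariate (limma adjusted p = 0.064, 0.053, 0.064 and 0.40).

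DER1.1, the other gene of the Derlin1 type, lay the other way. Its level was 12.1, 9.15 and 8.61 FPKM in the WT libraries, against 18.6, 16.6 and 12.1 in the smk8-ref libraries. WT replicate 1 (12.15) lay just above smk8-ref replicate 3 (12.13), so the groups overlapped at that point. The smk8-ref mean was 1.58 times the WT mean, with a log2 difference of 0.60 ± 0.20 (SE; 95% interval 0.13 to 1.08), and it did not pass after adjustment over all genes (limma adjusted p = 0.11, unadjusted p = 0.019). Of all genes tested, 28.3% had an unadjusted p under 0.05.

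The balance within the Derlin1 pair differed between the genotypes in every library. DER1.1 was at 0.485, 0.419 and 0.391 times the level of DER1.2 in the WT libraries, and at 1.22, 1.33 and 1.14 times in the smk8-ref libraries. DER1.2 was thus the more abundant of the pair in each WT library, and DER1.1 in each smk8-ref library. DER1.1 held 30.1% ± 2.32 (SD, n = 3) of the pair's FPKM in WT and 55.1% ± 1.91 in smk8-ref. The log2 ratio of the pair, taken as (DER1.1 + 1)/(DER1.2 + 1), was -1.14 ± 0.14 in WT and 0.28 ± 0.11 in smk8-ref, a difference of 1.41 (exact two-sided permutation test, p = 0.10, the smallest that 3 libraries against 3 allow). Multiplying a library by a constant leaves this ratio unchanged, apart from the pseudocount of 1. How often the ratio of other gene pairs separates the genotypes was not counted.

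**Figure D2:**
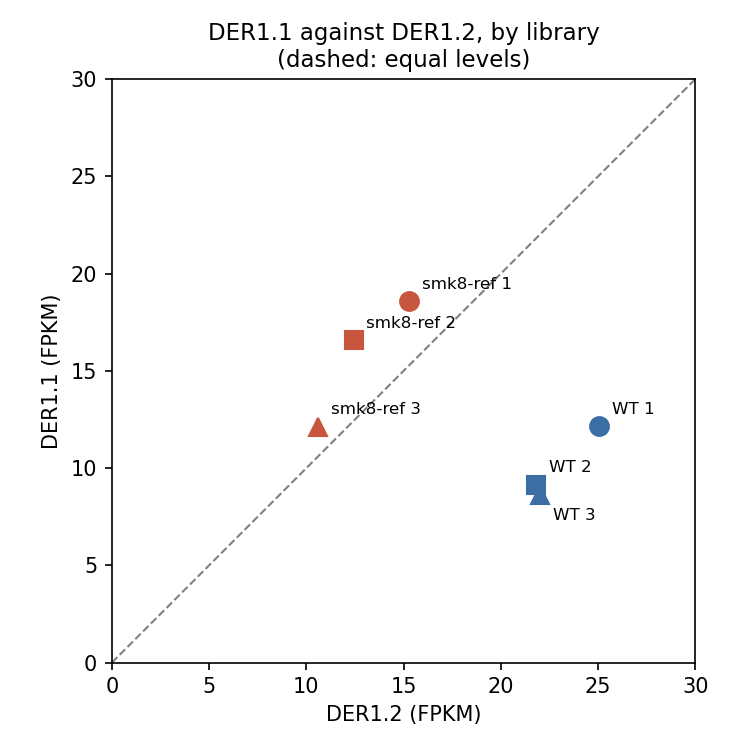
DER1.1 (y axis, FPKM) against DER1.2 (x axis, FPKM) in each library, with the dashed line marking equal levels. The 3 WT libraries sit below the line, where DER1.1 is 0.391 to 0.485 times DER1.2, and the 3 smk8-ref libraries sit above it, at 1.14 to 1.33 times.

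The summed level of the pair overlapped between the genotypes. DER1.1 and DER1.2 together stood at 37.2, 31.0 and 30.6 FPKM across the WT repeats, and 33.8, 29.0 and 22.8 across those of smk8-ref. After the genotype mean was taken off, their log2(FPKM + 1) values had a Pearson correlation of 0.92 over the 6 libraries, a description of values that share library and scaling; between WT replicates 2 and 3 the genes differed in opposite directions. WT replicate 1 and smk8-ref replicate 1 had the highest levels of both genes within their genotype. WT replicate 1 also had the lowest median-of-ratios scaling factor, 0.848 against 1.01 to 1.12 in the other libraries. Divided by these factors, it stood at 14.3 FPKM for DER1.1, against 9.08 and 8.09 in WT replicates 2 and 3. For DER1.2 it then stood at 29.5 FPKM, against 21.6 and 20.7. The part of library scaling in the derlin levels was not tested.

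For both genes of the Derlin2 type the smk8-ref mean was the lower one, and neither passed. DER2.1, the derlin with the highest mean in each genotype, stood at 27.4, 24.1 and 20.8 FPKM in the WT libraries, against 21.8, 19.07 and 19.08 in the smk8-ref libraries. WT replicate 3 lay within the smk8-ref range. The log2 difference was -0.25 ± 0.14 (SE; 95% interval -0.58 to 0.08; limma adjusted p = 0.28), and it was -0.16 without WT replicate 1, -0.16 with quantile normalization, -0.40 with median-of-ratios scaling and 0.011 with a library covariate (the one that goes with the authors' fold changes). DER2.2 stood at 7.71, 10.7 and 6.89 FPKM across the WT repeats, and 6.88, 6.002 and 5.47 across those of smk8-ref. Its groups did not overlap, though WT replicate 3 and smk8-ref replicate 1 differed by less than the spread within either genotype, and its log2 difference was -0.39 ± 0.19 (SE; 95% interval -0.83 to 0.05; limma adjusted p = 0.22). Without WT replicate 2 that difference was -0.22, and from the leading transcript alone it was 0.028. Groups that did not overlap were found for 2 of the 4 derlins, both lower in smk8-ref, and for 34.5% of all genes tested, 15.9% as lower.

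The ratios of the Derlin2 pair overlapped between the genotypes. DER2.1 was at 3.55, 2.26 and 3.03 times the level of DER2.2 in the WT libraries, and at 3.17, 3.18 and 3.49 times in the smk8-ref libraries. The log2 ratio of the pair, (DER2.1 + 1)/(DER2.2 + 1), was 1.43 ± 0.30 in WT and 1.56 ± 0.06 in smk8-ref (exact two-sided permutation test, p = 0.70). Without WT replicate 2, where DER2.2 was highest, the difference of 0.14 became -0.025. Whether the shift of the DER1 pair exceeded that of the DER2 pair was not tested.

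Summed over the family, the derlin level was 72.3, 65.8 and 58.4 FPKM in the WT libraries, against 62.5, 54.1 and 47.3 in the smk8-ref libraries. The highest smk8-ref library exceeded the lowest WT library, so the groups overlapped. The difference of the means was -10.8 FPKM (exact two-sided permutation test, p = 0.20). It was -7.17 without smk8-ref replicate 3 and -17.6 with median-of-ratios scaling. The share of this sum held by DER1.1 was 15.2% ± 1.49 in WT and 28.7% ± 2.65 in smk8-ref, and that held by DER1.2 was 35.2% ± 2.33 and 23.3% ± 1.02. The shares of DER2.1 (36.8% ± 1.07 and 36.8% ± 3.04) and DER2.2 (12.9% ± 2.95 and 11.2% ± 0.305) overlapped between the genotypes. Of the 4 derlins, 1 passed the test, as lower, where 7.6% of all genes tested passed, 4.21% as lower. The median log2 change of the 4 was -0.32, against 0.05 over all genes tested. Among genes with at least 5 FPKM in at least 3 libraries the median was -0.05.

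Transcripts showed where the sums of the DER2 loci came from. Transcript T003, which begins at 960559, downstream of the start of the others, carried nearly all of DER2.1. It stood at 27.1, 23.4 and 19.5 FPKM across the WT repeats, and 19.8, 17.6 and 17.2 across those of smk8-ref. Its share of the locus was 99.0%, 97.0% and 93.6% in WT and 91.0%, 92.1% and 90.3% in smk8-ref, lower in each smk8-ref library than in any WT library (difference -5.41 percentage points, exact two-sided permutation test, p = 0.10, the smallest possible). How often the leading transcript's share separates the genotypes at other loci was not counted.

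The remainder of DER2.1 was mainly T001, which begins at 958297. It stood at 0.263, 0.701 and 1.29 FPKM in the WT libraries, against 1.55, 1.41 and 1.81 in the smk8-ref libraries. The groups did not overlap, as for 27.7% of all transcripts tested, and the log2 difference of 0.60 ± 0.25 did not pass (limma over 23076 transcripts, adjusted p = 0.24). That difference was 0.39 without WT replicate 1, 1.18 with a pseudocount of 0.1 and 0.13 with the library covariate. T002, with the same start and end as T001, was at most 0.422 FPKM and was below the filter.

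The upstream end of T001 and T002 overlaps a neighbouring gene on the same strand, Zm00001d012833 (chromosome 5, 958243 to 960125), which was looked at after the values were seen. That gene stood at 4.67, 3.49 and 2.19 FPKM across the WT repeats, and 0.117, 0.151 and 0.0555 across those of smk8-ref. In smk8-ref it fell by 1.97 ± 0.22 on the log2(FPKM + 1) scale (limma adjusted p = 0.015). Its smk8-ref values were far below 1 FPKM, so the pseudocount of 1 limits the size of that fall. The WT mean was 32.1 times the smk8-ref mean. T003 begins beyond the end of that gene. How reads were divided between Zm00001d012833 and the longer DER2.1 transcripts is not stated in the labels or the table, and its part in the DER2.1 shares was not tested.

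DER2.2 was split over 5 transcripts, and the division varied among libraries, with WT replicate 2 the furthest from the others. T004, the most abundant on average, stood at 3.18, 0.856 and 3.07 FPKM in the WT libraries, against 2.62, 1.84 and 2.25 in the smk8-ref libraries. T001 stood at 0.694, 6.28 and 0.698 FPKM across the WT repeats, and 2.18, 1.32 and 0.458 across those of smk8-ref. In WT replicate 2 T001 held 58.7% of the locus and T004 8.01%, against 9.002% to 10.1% and 41.3% to 44.5% in the other WT libraries. Across the smk8-ref repeats T001 held 31.7%, 22.0% and 8.36%, and T004 38.0%, 30.7% and 41.1%. T001, T002 and T003 are listed with the same start and end, and T004 with nearly the same.

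The share of T004 differed by 5.36 percentage points between the genotypes with all libraries (exact two-sided permutation test, p = 1.0) and by -6.27 without WT replicate 2. Over the 5 exact tests made on pair ratios, the summed level and transcript shares, the lowest Benjamini-Hochberg adjusted p was 0.25. T005, which is listed from 304367794 to 304370979 on the minus strand and so covers a shorter span, stood between 0.926 and 1.69 FPKM over the 6 libraries. T002 and T003 did not reach 1 FPKM in 3 libraries and were not tested. Of the 10 derlin transcripts 7 were tested and none passed (limma, 3 at an unadjusted p under 0.05, lowest adjusted p = 0.069). Of all transcripts tested, 2.12% passed and 20.1% had an unadjusted p under 0.05. The lowest adjusted p was that of DER1.2, whose single transcript has the values of its locus and is here adjusted over 23076 transcripts.

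**Figure D3:**
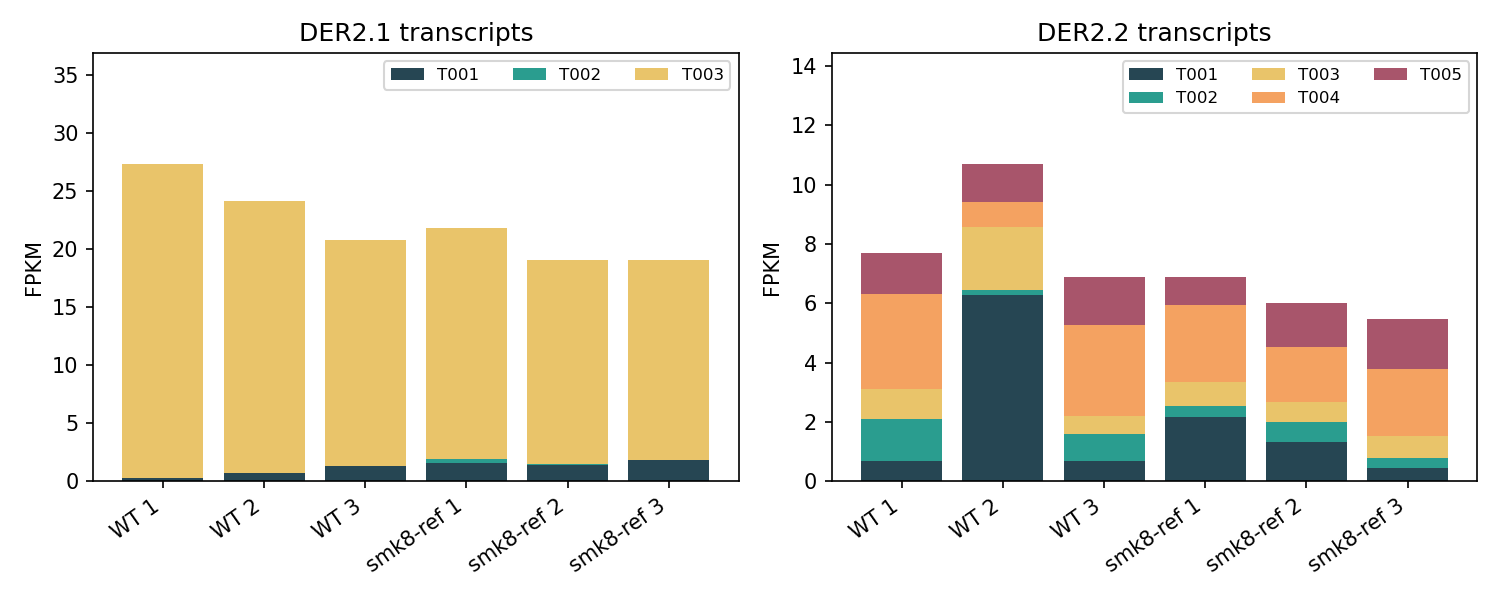
Stacked bars of FPKM (y axes, linear from 0) for the transcripts of DER2.1 and DER2.2 in each of the 6 libraries. T003 makes up 90.3% to 99.0% of DER2.1, while in DER2.2 the WT replicate 2 bar is mostly T001 (58.7%) and the other bars hold more T004 than T001.

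The authors' deposited table places the derlins differently. In the authors' deposited table DER1.1 is marked up, with a fold change of 2.09 (p = 0.021, q = 0.68), a mark shared by 2.53% of transcripts. DER1.2 has a fold change of 0.699 in the authors' deposited table (p = 0.072, q = 0.80) and is marked as no change. The leading DER2.1 transcript, T003, has a fold change of 0.977 in the authors' deposited table (q = 0.98). No DER2.2 transcript is marked there, and their fold changes in the authors' deposited table run from 0.532 (T001) to 1.56 (T004).

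A linear model on log2(FPKM + 1) with genotype and 1 library covariate gave the log2 fold changes of the authors' deposited table for 86771 of 86771 transcripts within 0.001. The covariate is the sum of the log2(FPKM + 1) values of a library's non-zero transcripts below their upper quartile, and it averaged 21558 in smk8-ref and 18912 in WT, with no overlap between the genotypes. With it added to the gene fit, DER1.1 differed by 1.06 and DER1.2 by -0.52 on the log2 scale (limma adjusted p = 0.23 and 0.40), and 6 genes passed in all. The Derlin1 genes thus kept opposite signs, and the sizes of their differences changed places.

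**Figure D4:**
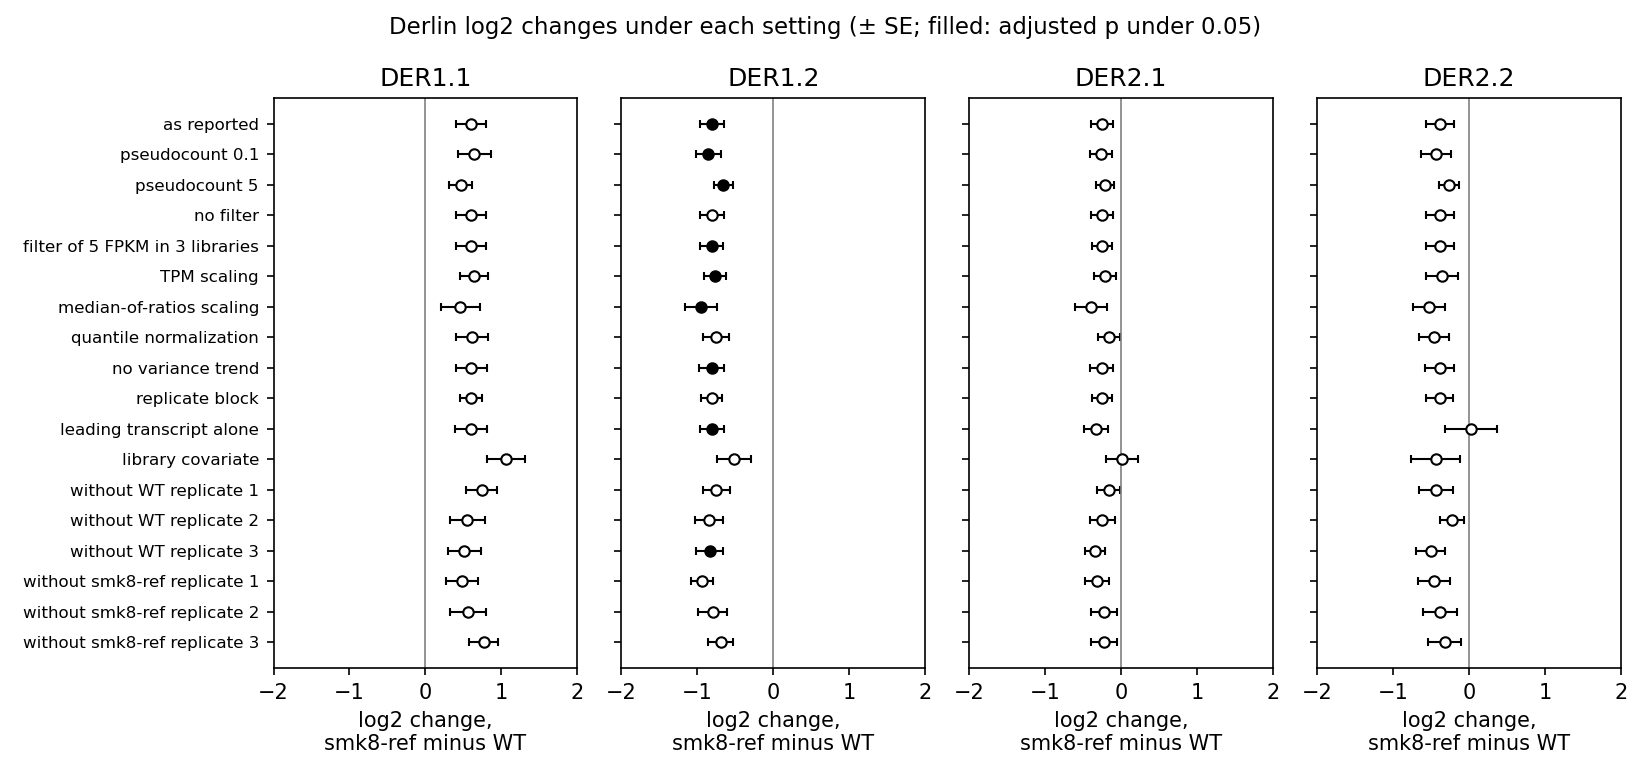
Log2 change (x axes, smk8-ref minus WT, ± SE) of each derlin gene as reported and under 17 other settings (y axis), with filled points where the limma adjusted p was under 0.05. DER1.2 stays negative, between -0.96 and -0.52, with 9 open points among the other settings, and DER1.1 stays positive, between 0.46 and 1.06, with open points throughout.

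Other genes of the pathway were sought in the table by exact name only, so a gene listed under another name would be missed. Of 89 names of chaperones, folding enzymes, degradation and stress-sensing genes of the endoplasmic reticulum, 1 was found, BIPE2, a luminal binding protein (BiP) chaperone. BIPE2 stood at 49.8, 49.6 and 31.5 FPKM in the WT libraries, against 86.1, 48.7 and 37.9 in the smk8-ref libraries. Only smk8-ref replicate 1 lay above the WT range, and the difference did not pass (log2 difference 0.34, 95% interval -0.42 to 1.097, limma adjusted p = 0.53). The other genes of the pathway were not analysed by name here.

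Among the 185 other named genes tested, those most like each derlin were found by Pearson correlation of log2(FPKM + 1) over the 6 libraries, which share their scaling and fall into 2 genotypes. For DER1.1 these were TBP1 (0.97), LON1, a Lon-type protease (0.87), and HMT-1, a homocysteine methyltransferase (0.78). For DER1.2 they were PYRR (0.97), SMH1 of the single-myb-histone family (0.94) and SIP2-1, a small basic intrinsic protein (0.91). For DER2.1 they were FPS, a farnesyl pyrophosphate synthase (0.93), and the plasma membrane aquaporins PIP2-2 (0.90) and PIP2-1 (0.86). For DER2.2 they included SMH2 (0.83) and the plastid gene psbH (0.79). TBP1, the closest to DER1.1, stood at 3.04, 2.69 and 2.30 FPKM across the WT repeats, and 5.48, 5.44 and 3.75 across those of smk8-ref (limma adjusted p = 0.071). PYRR, the closest to DER1.2, ran only from 4.68 to 4.82 FPKM in WT and from 3.45 to 4.15 FPKM in smk8-ref (limma adjusted p = 0.27). LON1 and HMT-1 passed as higher in smk8-ref (limma adjusted p = 0.032 and 0.0247) and SIP2-1 as lower (0.0146). The others named did not pass.

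Markers of the embryo and of other kernel layers were set beside the derlin values. Of 24 embryo names 4 were found (KN-1, OBAP1A, OBAP2A and OBAP2B), and all 4 had higher means in smk8-ref without passing. Their summed level ran from 20.7 to 68.0 FPKM in WT and from 59.1 to 89.1 FPKM in smk8-ref, and WT replicate 3 gave the highest WT value. Of 10 aleurone and pericarp names 3 were found, with C2 and A2 below 1 FPKM in every library and CR4 at 7.86 ± 0.927 in WT and 9.80 ± 0.566 in smk8-ref (limma adjusted p = 0.21), and the sum of the 3 ran from 7.75 to 9.78 FPKM in WT and from 9.90 to 10.9 FPKM in smk8-ref. Of the endosperm markers, the embryo-surrounding region gene ESR3 fell (limma adjusted p = 0.043). ESR1 and FIE1 did not pass, with log2 differences of 0.13 and -0.15 (limma adjusted p = 0.905 and 0.803), and the sum of the 3 found ran from 22.8 to 43.5 FPKM in WT and from 19.9 to 32.98 FPKM in smk8-ref. The part of these markers in the DER1.1 and DER1.2 values was not tested. Leaving out WT replicate 3, the WT library with the highest embryo sum, gave DER1.1 a log2 difference of 0.52 and DER1.2 one of -0.84. The remaining WT libraries had embryo sums of 20.7 and 26.2 FPKM, below every smk8-ref library. Embryo sum and genotype then go together fully, so this fit does not test the part of the markers.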

How the data were processed

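Per the labels' protocols, RNA was taken from endosperm with Trizol and made into Illumina libraries. HISAT and StringTie are named in the submitters' processing notes, with no version, role or build. The authors deposited 1 table with an FPKM value per transcript and library, and their own comparison as a fold change (ratio) with its log2 value, p-value and q-value. Read counts and depth are unknown, so no count model was used.

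FPKM was summed per locus. Genes with at least 1 FPKM in at least 3 of 6 libraries entered a limma fit of log2(FPKM + 1) on genotype (limma 3.58.1, R 4.3.3; variance trend, two-sided, Benjamini-Hochberg over all genes tested, threshold 0.05), and transcripts likewise. Pair ratios, transcript shares and sums were compared with exact permutation tests over libraries (scipy 1.17.1). The limma procedure was tested on simulated data. The text names the derlins, the members found of the endoplasmic reticulum and marker lists, and for each derlin the 3 named genes most correlated with it, of which 1 is not reported here; a neighbouring gene was added after its values were seen. Members, lists and tests were chosen with earlier results of these data known. Alternatives were other pseudocounts, filters and scalings, no variance trend, the leading transcript, the replicate number as a block, each library left out, and, added after seeing the data, a library covariate.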

Additional observations from a re-analysis of the deposited data

How the results depend on the processing

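DER1.1 stayed higher and DER1.2 lower in smk8-ref under all 17 alternatives, and no scaling turned the direction of any derlin; median-of-ratios scaling moved the median of all genes by -0.12 (log2), and DER1.1 was then at 0.46 and DER1.2 at -0.96. DER1.2 kept its call in 8 and lost it in 9: with no filter (-0.81), quantile normalization (-0.75), the replicate block (-0.81, adjusted p = 0.064), the library covariate (-0.52) and 5 of 6 libraries left out (-0.94 to -0.69 over the 6). Its adjusted p ranged from 0.024 to 0.40, and with no filter the adjustment covered 36781 genes, and for the other settings the cause was not tested. DER1.1 passed in none (adjusted p 0.081 to 0.29). DER2.1 turned to 0.011 with the library covariate, and DER2.2 to 0.028 with its leading transcript alone. That transcript, T004, was lowest in WT replicate 2, and without that library its difference was -0.36. With 1 library left out, the locus differences of DER2.1 and DER2.2 ranged from -0.35 to -0.16 and from -0.51 to -0.22. The DER1 pair ratio difference was computed under 9 alternatives (other pseudocounts, the leading transcript and each library left out) and stayed between 1.13 and 1.502. It was not computed with the library covariate, the other scalings or the replicate block. The DER2 pair difference turned to -0.36 with leading transcripts and ranged from -0.025 to 0.27 with 1 library left out. With 1 library left out, the DER2.1 leading share difference ranged from -6.86 to -4.19 and that of DER2.2 from -6.27 to 12.0 percentage points. DER2.2 transcripts also turned with 1 library left out, ranging from -0.67 to 0.38 (T001), -0.36 to 0.23 (T004) and -0.15 to 0.095 (T005). The library covariate gave values outside these ranges, -0.91 (T001), 0.64 (T004) and -0.22 (T005). Over all 10 alternatives run on transcripts, DER2.1 T001 ranged from 0.13 to 1.18 and T003 from -0.45 to -0.033. The summed derlin difference stayed between -17.6 and -7.17 FPKM over the 8 alternatives run on it (TPM and median-of-ratios scaling and each library left out).

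The number of genes past the threshold, 1205, became 388 with no filter, 779 with quantile normalization, 36 with the replicate block, 620 with leading transcripts, 6 with the library covariate and 28 to 1425 with 1 library left out. The split of higher and lower calls was 538 and 667, against 309 and 785 with median-of-ratios scaling, 607 and 583 with TPM scaling, 885 and 540 without WT replicate 3 and 144 and 356 without WT replicate 2. Replicate numbers were not shown to pair libraries: same-numbered libraries' deviations from the genotype means correlated at 0.0069, -0.0085 and 0.083, and 1 of 3 WT libraries correlated best with its own number.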
